A study of Drosophila melanogaster with 6 samples.

Results

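The genes of the glycolytic enzymes Pgi, Pfk, Ald, Tpi, Gapdh1, Gapdh2, Pgk, Eno and PyK and of lactate dehydrogenase (Ldh, listed under its older name ImpL3, FBgn0001258) were followed in leg disc myoblasts. They were chosen by name and not by a rule on their values, though with earlier results of these data known. They are 10 of the 17490 genes in the deposited table. All 10 were among the 7533 genes with values high enough to test. The myoblast group held 3 libraries of GFP+ cells sorted from Drosophila leg discs at 0 h after pupa formation (APF). The input group held 3 libraries of all cells of such discs, and all 6 libraries came from animals of the genotype R32D05-lexA>lexAopGFP whose discs had been dissociated with collagenase and papain. A myoblast is here a cell in which the R32D05 driver was active and which was sorted as GFP+. The input holds the myoblasts as well, so a difference compares myoblasts with a mixture of which they are part. The labels do not say whether the replicates were separate dissections, so p-values measure only the spread between these libraries.

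Glycolysis splits glucose into pyruvate with a small yield of ATP. In its first phase sugar is phosphorylated and cut into trioses by hexokinase, Pgi, Pfk, Ald and Tpi, and Pfk catalyzes the committed step. In its second phase Gapdh, Pgk, phosphoglycerate mutase, Eno and PyK turn the trioses into pyruvate and return ATP and NADH. Ldh then reduces pyruvate to lactate and recovers the NAD+ that Gapdh needs, whereas pyruvate that enters mitochondria feeds the citric acid cycle. In Drosophila larvae a high level of glycolysis together with Ldh is known to accompany growth, and its genes are switched on together in the embryo by the nuclear receptor ERR.

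Expression was given as RPKM, that is, reads scaled to gene length and to a measure of the library's size. Levels of different genes are therefore compared per length, apart from a length trend in input replicate 1 that is described below. Multiplied by exon length and by a library total fitted for this purpose, the values fell on whole reads (within 0.05 reads). This held for 97.4% to 98.6% of genes with fewer than 100 reads. Over all genes, reads obtained in this way sum to 60011346 to 77704081 per myoblast library and 45603723 to 60920341 per input library. This sum was 1.10 times the fitted total in input replicate 1 and 0.838 to 0.927 times it in the other libraries. The 10 enzyme genes drew on 541 to 46833 reads each in a library, which were not tied to single molecules by identifiers. The median-of-ratios scaling factor of the deposited values was the same in all 6 libraries, as values have once that scaling has been applied. All 5 myoblast markers (twi, htl, zfh1, Him and Mef2) were higher in myoblasts. The summed RPKM of 4 tendon precursor markers was 1.35 to 1.45 in myoblasts and 65.5 to 76.1 in the input. For 5 disc epithelium markers the sum was 55.7 to 74.2 in myoblasts and 116 to 204 in the input, and 4 of them were called lower. For 4 neuron markers it was 2.88 to 4.36 in myoblasts and 12.8 to 51.6 in the input, with all 3 tested ones called lower. For 5 genes of differentiated muscle it was 7.70 to 10.5 in myoblasts and 1.32 to 5.64 in the input, with 1 of 3 tested genes called higher. The summed RPKM of 3 glia markers was 74.4 to 91.1 in myoblasts and 63.2 to 65.7 in the input, although 1 of 2 tested glia markers was called lower and 0 higher. That of 7 stress response genes was 10460 to 12804 in myoblasts and 17327 to 21073 in the input, but only 1 of 6 tested ones was called lower and 0 higher. The sum was at most 4.05 for hemocyte, 2.11 for trachea, 0.641 for fat body and 1.81 for salivary gland markers in myoblasts. In the input, trachea markers reached 7.62. Hemocyte markers reached 42.9 and fat body markers 24.7 in input replicate 1, against at most 9.65 and 1.28 in the other inputs, and salivary gland markers reached 391 in input replicate 3. In bulk RNA, a change in the number of cells of a type and a change in RNA per cell cannot be told apart, and the part that these cell types had in the results below was not tested.

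Input replicate 1 stood apart from the other inputs in a way that followed gene length. Relative to the mean of input replicates 2 and 3, on the log2(RPKM + 1) scale, its median difference was 1.02 for the 1121 tested genes with under 1000 bases of exon, 0.56 for 1196 genes from 1000 to 1500 bases, and -0.87 for 1065 genes of 5000 bases or more. Among the enzyme genes the difference was 1.37 for Tpi, 1.31 for Gapdh1, 0.93 for Gapdh2 and 0.80 for Pgk, whose summed exons measure from 1443 to 2112 bases. It was -0.34 for Pfk and -0.50 for Ald, with 4377 and 3809 bases. Eno, with 3718 bases, went against the trend at 0.28, where the median of the 3000 to 5000 base class was -0.58. PyK was at 0.16, Ldh at 0.07 and Pgi at -0.29. Calls and level orders that change without this library are therefore also given without it.

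**Figure D1:**
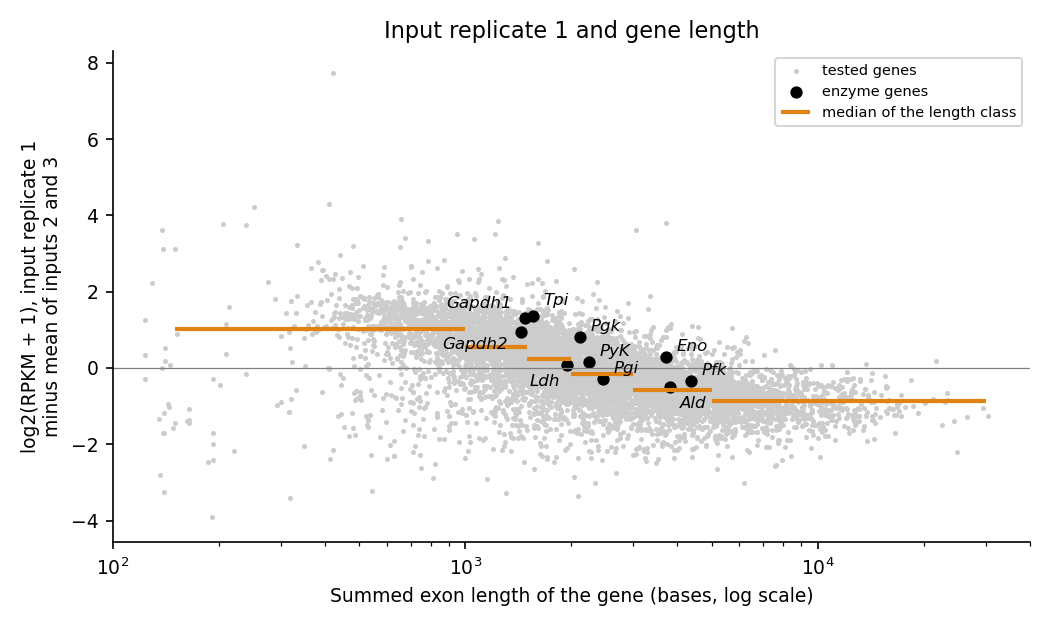
Difference of log2(RPKM + 1) between input replicate 1 and the mean of input replicates 2 and 3 (vertical axis) against the summed exon length in bases (horizontal axis, log scale). Grey points are tested genes, black points the 10 enzyme genes, and orange bars the median of a length class, which was 1.02 below 1000 bases and -0.87 from 5000 bases on. Of the enzyme genes, Tpi, Gapdh1, Gapdh2, Pgk, Eno, PyK and Ldh lie above 0, and Pgi, Pfk and Ald below it.

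Of the 10 enzyme genes, 4 were lower in myoblasts than in the input: Ldh, Pfk, Ald and Gapdh2. As a share of the input mean, the myoblast mean was 22.6% for Ldh, 27.8% for Pfk, 43.4% for Ald and 48.3% for Gapdh2. Pgi, Tpi, Gapdh1, Pgk, Eno and PyK did not pass the test. Genes were called at an adjusted p under 0.05 (limma with Benjamini-Hochberg adjustment over 7533 genes) and a fold change over 1.5, both on log2(RPKM + 1), which gave 20.4% of all tested genes as called, 14.8% as lower and 5.52% as higher in myoblasts. Among the enzyme genes 0 were called higher, and the 4 called lower were also the only ones with an unadjusted p under 0.05. The median log2 fold change of the 10 genes was -0.38, beside 0.01 over all tested genes. Every myoblast library lay below every input library for 5 of the 10 genes, against 21.5% of all tested genes, and above every input library for 0, against 16.4%. Without input replicate 1 the same 4 genes were called lower, where 19.5% of all genes were, and Gapdh1 was called higher, where 11.6% were.

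**Figure D2:**
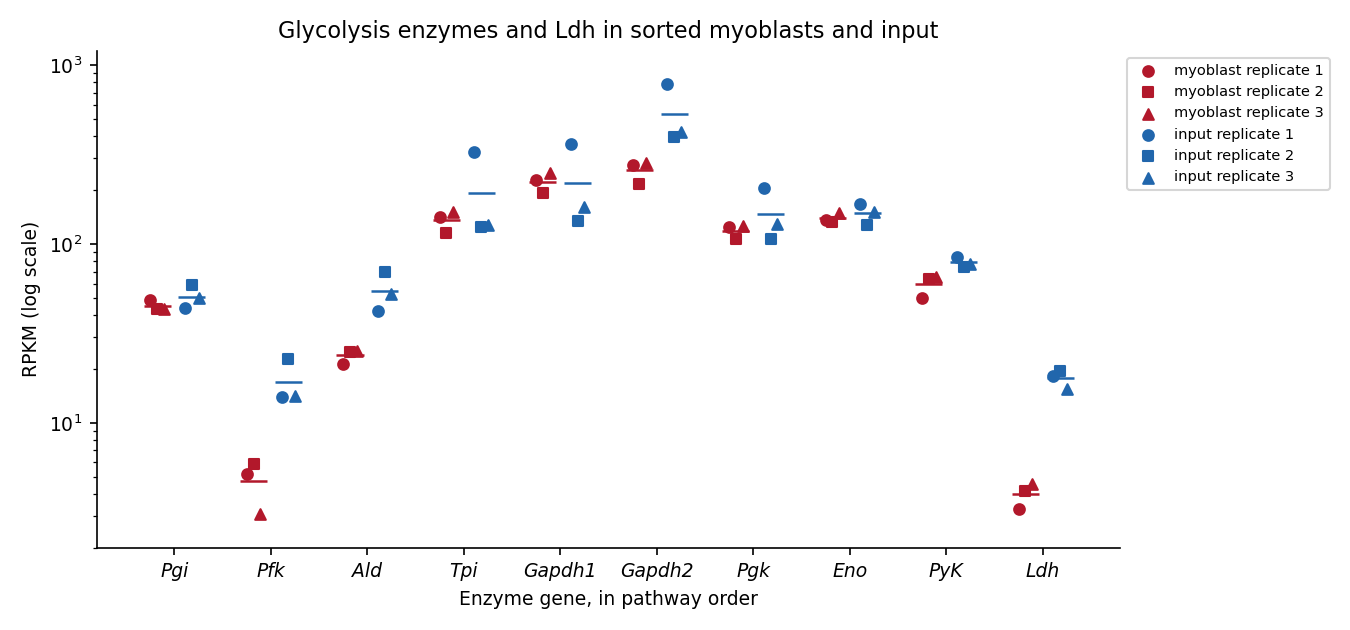
RPKM (vertical axis, log scale) of the 10 enzyme genes in pathway order (horizontal axis). Each point is a library, with myoblasts in red left of the input in blue, and each bar is the group mean. For Pfk, Ald, Gapdh2, PyK and Ldh all myoblast points lie below all input points, and for the other 5 genes the groups overlap.

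Ldh showed the largest difference of the 10. The gene spans bases 6259105 to 6262694 of chromosome 3L (dm6, as are all positions given here). RPKM was 3.31, 4.15 and 4.56 in myoblast replicates 1, 2 and 3, against 18.2, 19.4 and 15.5 in input replicates 1, 2 and 3. The groups were far apart, and input replicate 1 lay between the other inputs. Myoblasts differed from the input by -1.90 on the log2 scale (SE, standard error, 0.235, adjusted p = 0.000802, limma), and it was called in all 15 alternative settings. The mean was 4.42 times as high in the input as in myoblasts. Among all 17490 genes Ldh ranked between 5834th and 6085th in the myoblast libraries and between 3189th and 3835th in the input libraries.

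PyK makes the pyruvate that Ldh reduces (FBgn0267385, chromosome 3R, 22367536 to 22372746). PyK RPKM was 49.99, 63.9 and 65.6 in the myoblast libraries and 84.7, 74.6 and 77.1 in the input libraries. The groups did not overlap, but PyK did not pass the test (log2 fold change -0.40, 95% interval -0.82 to 0.02, adjusted p = 0.185, limma). The ratio of PyK to Ldh was taken within each library, where scaling between libraries cannot move it. It was 15.1, 15.4 and 14.4 in myoblasts and 4.65, 3.85 and 4.99 in the input. On the log2 scale the ratio of Ldh to PyK averaged -3.90 ± 0.0502 in myoblasts and -2.16 ± 0.194 in the input (SD, n = 3 each; two-sided exact permutation test, p = 0.1, which is the lowest value that 3 against 3 libraries can give). Ldh and PyK have exons of similar length, 1942 and 2242 bases. With 3 ratios tested in this way the Benjamini-Hochberg adjusted p was 0.1 for each.

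Pfk, the enzyme of the committed step, had the lowest RPKM of the 9 glycolytic genes (FBgn0003071, chromosome 2R, 10109740 to 10117457). It was 5.20, 5.90 and 3.08 RPKM in the myoblast libraries and 14.01, 22.8 and 14.1 RPKM in the input libraries. The coefficient of variation was 31.1% in myoblasts and 29.7% in the input, with myoblast replicate 3 the lowest and input replicate 2 the highest. Myoblasts differed from the input by -1.65 on the log2 scale (SE 0.309, adjusted p = 0.00671, limma). The levels of Pgi, which acts just before Pfk, did not pass the test (FBgn0003074, chromosome 2R, 8910900 to 8914069). Pgi RPKM was 48.3, 43.2 and 43.1 in myoblasts and 43.9, 58.6 and 49.7 in the input, with overlapping groups and a log2 fold change of -0.17 (95% interval -0.59 to 0.26, adjusted p = 0.616, limma). In a ratio chosen after the values were seen and not tested, Pfk had 10.8%, 13.6% and 7.15% of the Pgi level in the myoblast libraries and 31.9%, 38.9% and 28.4% in the input libraries. The exons differ in length, with 4377 bases in Pfk and 2460 in Pgi, so the length trend of input replicate 1 can act on this ratio.

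Ald, listed as Ald1 in the current annotation, cuts the hexose made by Pfk (FBgn0000064, chromosome 3R, 26254069 to 26261591). Its RPKM was 21.3, 25.0 and 25.1 in the myoblast libraries and 42.4, 69.6 and 52.4 in the input libraries. The myoblast values lay close together and well below the lowest input value. Myoblasts differed from the input by -1.15 on the log2 scale (SE 0.224, adjusted p = 0.00829, limma). When every library was rescaled to the same sum of RPKM, neither Pfk (log2 fold change -1.63, adjusted p = 0.0552, limma) nor Ald (-1.12, adjusted p = 0.105, limma) was called. That scaling left 2 enzyme genes lower and 0 higher, where 12.3% and 2.39% of all genes were. Over all 15 settings the adjusted p lay between 0.00165 and 0.0552 for Pfk and between 0.000313 and 0.105 for Ald. An antisense transcript, asRNA:CR44321, shares 338 bases with the exons of Ald and had at most 0.173 RPKM.

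The step of glyceraldehyde phosphate dehydrogenase is encoded by a pair of genes, Gapdh2 and Gapdh1, and only Gapdh2 was called with all libraries. Gapdh2 (FBgn0001092, chromosome X, 15868145 to 15869661) had 274, 217 and 284 RPKM in the myoblast libraries and 783, 397 and 424 RPKM in the input libraries. This was a log2 fold change of -0.99 (with SE 0.293, adjusted p = 0.0486, limma). This call was close to the threshold and was made in 7 of the 15 alternative settings, with an adjusted p from 0.00362 to 0.206. Gapdh1 (FBgn0001091, chromosome 2R, 7791901 to 7793380) had 228, 192 and 249 RPKM in the myoblast libraries and 363, 134 and 159.8 RPKM in the input libraries. All myoblast values of Gapdh1 were above input replicates 2 and 3 and below input replicate 1. With all libraries its log2 fold change was 0.16 (95% interval -0.67 to 0.99, adjusted p = 0.823, limma). Without input replicate 1 it was 0.60 (SE 0.158, adjusted p = 0.0218, limma), past both thresholds, and over all settings the adjusted p lay between 0.0218 and 0.996. Gapdh2 without that library had a log2 fold change of -0.68 (adjusted p = 0.0128, limma).

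Because the exons of the pair have nearly the same length, 1480 bases in Gapdh1 and 1443 in Gapdh2, their ratio within a library is little exposed to the length trend. Gapdh2 made up 54.7%, 53.0% and 53.3% of the RPKM of the pair in the myoblast libraries and 68.3%, 74.8% and 72.6% in the input libraries. The means were 53.7% ± 0.880 in myoblasts and 71.9% ± 3.31 in the input (SD, n = 3 each; two-sided exact permutation test, p = 0.1, the lowest possible). Input replicate 1 lay closest to the myoblasts but above all of them. The summed RPKM of the pair overlapped between groups, with 502, 409 and 533 in myoblasts and 1146, 531 and 584 in the input. The sources used here do not state how reads that match both genes were treated, so the levels of these closely related copies are less certain than those of the other genes.

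**Figure D3:**
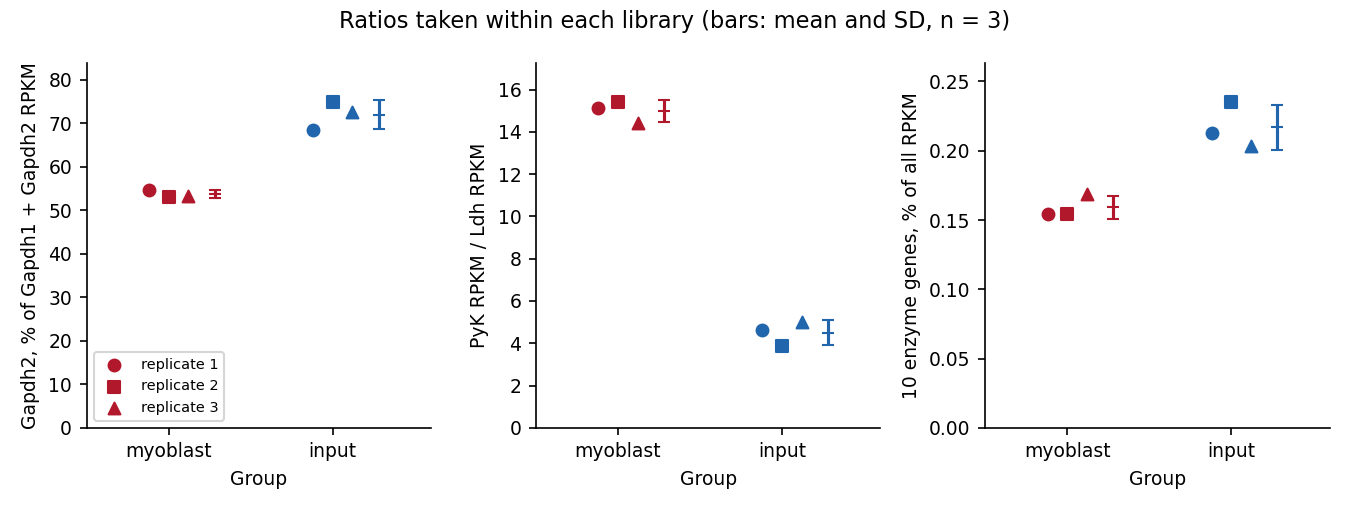
Values taken within each library, with myoblasts left of the input. The left panel shows Gapdh2 as a percentage of the summed RPKM of Gapdh1 and Gapdh2, the middle panel the ratio of PyK to Ldh RPKM, and the right panel the 10 enzyme genes as a percentage of all RPKM. Points are libraries, and bars at the right of each group give the mean and SD (n = 3). The groups do not overlap in any panel.

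The remaining enzymes of the triose phase were among the more abundant transcripts, and their groups overlapped. Tpi, which interconverts the trioses (FBgn0086355, chromosome 3R, 30132981 to 30134599), had 142, 115 and 151 RPKM in myoblasts and 328, 124 and 128 RPKM in the input. The high input value was that of replicate 1. Tpi had a log2 fold change of -0.36 with all libraries (95% interval -1.21 to 0.50, adjusted p = 0.586, limma) and 0.10 without input replicate 1. Pgk, which returns the first ATP (FBgn0250906, chromosome 2L, 2746880 to 2753068), had 125, 106 and 126 RPKM in myoblasts and 205, 106 and 129 RPKM in the input. For Pgk the log2 fold change was -0.25 with all libraries (95% interval -0.85 to 0.35, adjusted p = 0.584, limma) and 0.02 without input replicate 1. Eno, which forms phosphoenolpyruvate (FBgn0000579, chromosome 2L, 1724768 to 1729636), had 136, 132 and 149 RPKM in myoblasts and 168, 127 and 151 RPKM in the input. The log2 fold change of Eno was -0.09, the closest to 0 of the 10 genes with all libraries (95% interval -0.51 to 0.33, adjusted p = 0.801, limma). Exons of Pgk share 65 bases with Cwc25 and those of Eno 362 bases with Rrp40 on the opposite strand, and these neighbors had at most 21.3 and 35.7 RPKM. Whether reads were counted by strand is not given in the sources used here.

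**Figure D4:**
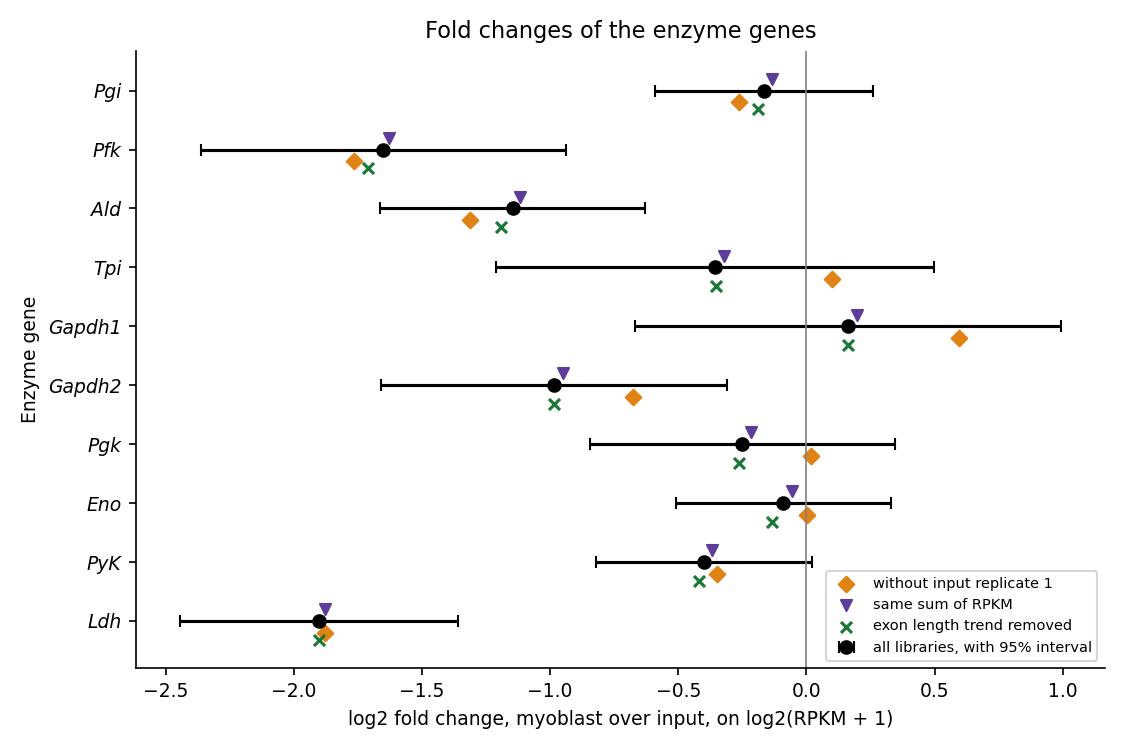
Log2 fold change of myoblast over input on the log2(RPKM + 1) scale (horizontal axis) for the 10 enzyme genes in pathway order from top to bottom. Black points with bars are the values with all libraries and their 95% intervals. Orange diamonds leave out input replicate 1, purple triangles have every library rescaled to the same sum, and green crosses have the trend on exon length removed. The largest shifts without input replicate 1 are those of Tpi (-0.36 with all libraries, 0.10 without it) and Gapdh1 (0.16 with all libraries, 0.60 without it), and Ldh lies at -1.88 without it.

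By mean RPKM the order in myoblasts was Gapdh2 (258), Gapdh1 (223), Eno (139), Tpi (136), Pgk (119), PyK (59.8), Pgi (44.9), Ald (23.8), Pfk (4.73) and Ldh (4.004). The library ranges of neighboring genes overlapped between Gapdh2 and Gapdh1, among Eno, Tpi and Pgk, and between Pfk and Ldh. In the input the order was Gapdh2 (535), Gapdh1 (219), Tpi (193), Eno (149), Pgk (147), PyK (78.8), Ald (54.8), Pgi (50.7), Ldh (17.7) and Pfk (17.0). There the ranges overlapped among Gapdh1, Tpi, Eno and Pgk, between Ald and Pgi, and between Ldh and Pfk. Over input replicates 2 and 3 alone the mean of Eno (139) was above that of Tpi (126), and that of Pfk (18.5) above that of Ldh (17.4), with the rest of the order as before. Gapdh2 was above Gapdh1 in every library, and Ald was below Pgi in each myoblast library. The 10 genes held 0.154%, 0.154% and 0.169% of all RPKM in the myoblast libraries and 0.213%, 0.235% and 0.204% in the input libraries. Their means were 0.159% ± 0.00832 in myoblasts and 0.217% ± 0.0163 in the input (SD, n = 3 each, two-sided exact permutation test, p = 0.1, the lowest possible). Gapdh2, whose call was close to the threshold, made up on average 25.5% of the summed RPKM of the 10 genes in myoblasts and 36.2% in the input. This share is thus weighted towards Gapdh2. The sum of all RPKM, by which it is divided, was 963726 in input replicate 1, 481720 in replicate 2 and 589908 in replicate 3.

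Steps of glycolysis outside the 10 genes were measured on lists of 72 genes of adjoining pathways, of which 71 were matched and 52 tested. Of the 52 genes, 9 were called lower in myoblasts and 4 higher, where 14.8% and 5.52% of all tested genes were, with a median log2 fold change of 0.15. Without input replicate 1 the counts were 11 lower and 8 higher, where 19.5% and 11.6% of all tested genes were. The phosphoglycerate mutase Pglym78, which links Pgk and Eno, had 24.7, 23.5 and 20.1 RPKM in the myoblast libraries and 152, 76.3 and 85.8 RPKM in the input libraries. The groups were widely separated, differing by -2.09 on the log2 scale (SE 0.275, adjusted p = 0.00111, limma), and the call was made in all 15 alternative settings. In a ratio chosen after the values were seen and not tested, Pglym78 reached 19.9%, 22.2% and 16.0% of the RPKM of Pgk in myoblasts and 74.4%, 72.0% and 66.5% in the input. With 1136 and 2112 bases of exon in Pglym78 and Pgk, this ratio is exposed to the length trend of input replicate 1. A further annotated mutase, CG7059, had means of 0.480 RPKM in myoblasts and 4.46 RPKM in the input. It was under 1 RPKM in every myoblast library and so was tested only because of its input values, which makes its call no independent support, and the call was lost after quantile normalization. The mutase Pglym87 was listed at 0 in all libraries. Exons of CG7059 share 161 bases with CG13857 on the opposite strand, which had at most 4.32 RPKM.

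Hex-A, the hexokinase that starts the pathway, averaged 11.8 ± 1.25 RPKM in myoblasts and 22.8 ± 2.21 RPKM in the input (SD, n = 3 each). Hex-A had a log2 fold change of -0.89 (adjusted p = 0.0161, limma). It was called in 10 of 15 alternative settings, and the call was lost without input replicate 3, without any single myoblast library and after rescaling to the same sum. The other 3 hexokinase genes did not reach the RPKM needed for testing. Of 9 tested genes of sugar entry and sugar stores, 4 were lower in myoblasts and 0 higher, and without input replicate 1 the counts were 5 lower and 0 higher, the added gene being AGBE, the glycogen branching enzyme (log2 fold change -0.64, adjusted p = 0.0437, limma). The shares over all tested genes were 14.8% lower and 5.52% higher with all libraries, and 19.5% lower and 11.6% higher without that one. The glucose transporter Glut1, one of the called genes, averaged 0.651 ± 0.285 RPKM in myoblasts and 6.38 ± 2.24 RPKM in the input, and like CG7059 it was tested only because of its input values. The trehalose transporter Tret1-1 had 2.50 ± 1.06 RPKM in myoblasts and 12.3 ± 6.13 RPKM in the input (adjusted p = 0.0153, limma), and trehalase (Treh) 4.03 ± 1.10 RPKM in myoblasts and 14.3 ± 5.13 RPKM in the input (adjusted p = 0.0128, limma). Trehalose is the main sugar of fly hemolymph, and trehalase splits it into glucose. Glycogen phosphorylase (GlyP), which releases glucose from glycogen, averaged 6.67 ± 1.61 RPKM in myoblasts and 28.4 ± 6.63 RPKM in the input (adjusted p = 0.00143, limma). Tret1-1 and Treh lost their call without myoblast replicate 3 or input replicate 3 and after rescaling to the same sum, and Tret1-1 also without myoblast replicate 1. Exons of Treh share 560 bases with Rbpn-5 on the opposite strand, which had at most 10.6 RPKM. Glycogen synthase (GlyS), the most abundant gene of this list, did not pass the test, with 45.3 ± 2.42 RPKM in myoblasts and 40.6 ± 6.61 RPKM in the input.

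The gene fbp encodes fructose bisphosphatase, which runs the Pfk step in reverse, and it was higher in myoblasts. RPKM of fbp was 145, 138 and 142 in the myoblast libraries and 76.8, 38.4 and 47.8 in the input libraries. The lowest myoblast value was well above the highest input value, that of input replicate 1. Myoblasts differed from the input by 1.43 on the log2 scale (SE 0.258, adjusted p = 0.00558, limma), with a call in all 15 alternative settings. The ratio of fbp to Pfk, chosen after the values were seen and not tested, was 27.9, 23.5 and 46.2 in the myoblast libraries and 5.48, 1.68 and 3.38 in the input libraries. Exons of fbp measure 1202 bases and those of Pfk 4377, so this ratio is exposed to the length trend of input replicate 1. Pyruvate carboxylase (PCB), which carries pyruvate towards gluconeogenesis, was lower, at 1.93 ± 0.464 RPKM in myoblasts and 11.9 ± 5.18 RPKM in the input (adjusted p = 0.00622, limma). Of the genes of phosphoenolpyruvate carboxykinase, a later enzyme of gluconeogenesis, Pepck was listed at 0 in all libraries. CG10924 (Pepck2) was low, with 3.199 ± 1.08 RPKM in myoblasts and 0.941 ± 0.669 RPKM in the input. It was not called with all libraries (log2 fold change 1.14, adjusted p = 0.0733, limma), nor in 12 of 14 alternative settings. Without input replicate 1 it was called higher (1.204, adjusted p = 0.0410, limma). Too few input libraries reached 1 RPKM for the filter. CG10924 was thus tested only because of its myoblast values, which makes this call no independent support. Of the 8 paralogs of the enzyme genes 1 was tested, the Pgk paralog CG9961. It had 3.09, 6.70 and 3.95 RPKM in myoblasts and 0.235, 0.540 and 2.90 RPKM in the input, and was not called (log2 fold change 1.46, adjusted p = 0.0710, limma).

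**Figure D5:**
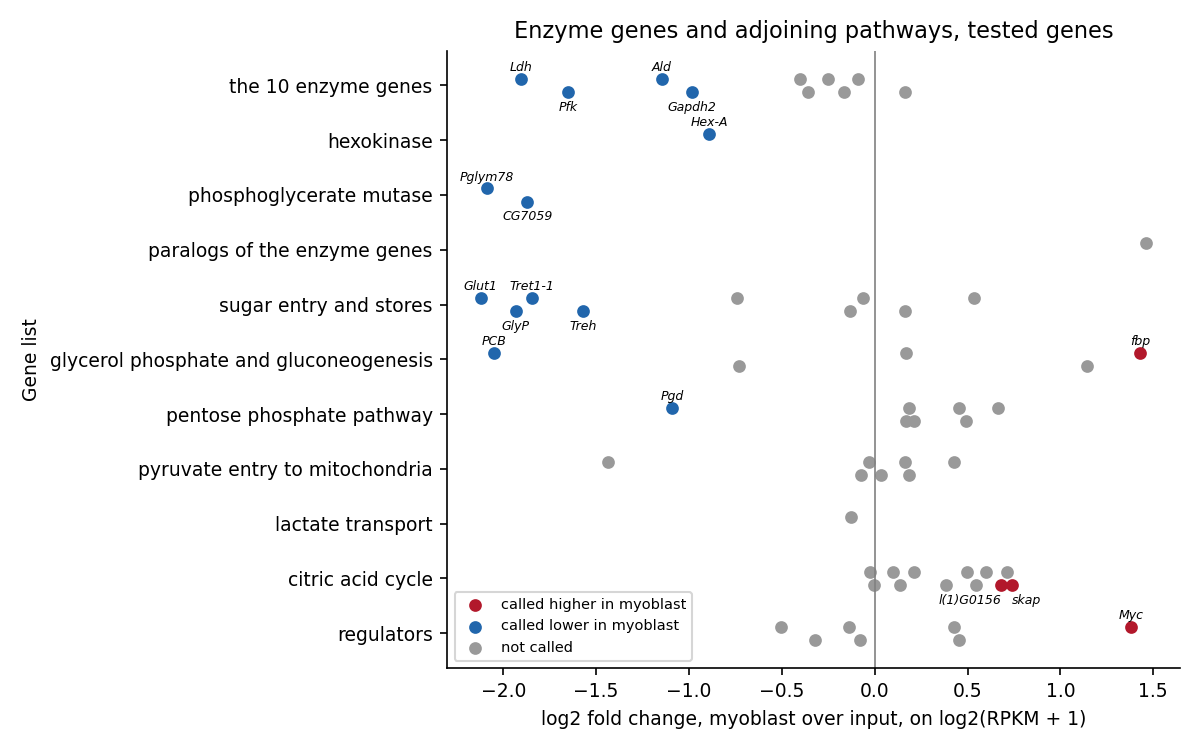
Log2 fold change of myoblast over input on the log2(RPKM + 1) scale (horizontal axis) for the tested genes among the 10 enzyme genes (top row) and in the lists of adjoining pathways (other rows). Red points were called higher in myoblasts, blue points lower, and grey points were not called. Over all lists 9 of 52 tested genes were called lower and 4 higher, where 14.8% and 5.52% of all tested genes were. The hexokinase, phosphoglycerate mutase and sugar lists, with 1, 2 and 9 tested genes, hold 7 calls, all lower in myoblasts. Of these calls, those of CG7059 and Glut1 concern genes tested only because of their input values. The 4 genes called higher are fbp, Myc and a pair of citric acid cycle genes.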

How the data were processed

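RNA-seq of 3 myoblast and 3 input libraries was analyzed. The deposited table holds RPKM per gene, which the authors' methods credit to Cufflinks. Per the submitters' processing notes the tools included cutadapt, HISAT2 2.1.0, HTSeq 0.11.2 and DESeq2 1.22.2 with the dm6 genome. Median-of-ratios factors of the deposited RPKM were the same in all 6 libraries, so this scaling as an alternative changed almost nothing. The table holds no columns of the authors' own comparisons. A gene was tested when 3 or more libraries had an RPKM of 1 or more (7533 genes), on log2(RPKM + 1), so fold changes of low genes are understated, with limma 3.58.1 (R 4.3.3, trended empirical Bayes, no block), Benjamini-Hochberg adjustment over all tested genes, and thresholds of 0.05 for the adjusted p and 1.5 for the fold change. Ratios within a library were compared by an exact permutation test (scipy 1.17.1). Error values are SD over 3 libraries unless named otherwise.

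All 10 enzyme genes are named, and from each list of adjoining pathways every called gene and the gene with the highest mean RPKM. Genes added to these are named with their values, having been chosen after the values were seen. Members and lists were chosen with earlier results of these data known. Genes were matched by identifier to Ensembl release 115, which gave coordinates, exon lengths and overlapping genes. Of 72 list genes 1 was not matched, and of 6 disc epithelium markers 1, and these are not analysed here. The script was tested on simulated data. Alternatives were the pseudocount, the filter, scaling, the replicate block, the empirical Bayes trend, leaving out each library and, added later, removal of the trend on exon length.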

Additional observations from a re-analysis of the deposited data

How the results depend on the processing

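The calls of Ldh were kept in all 15 alternative settings and those of Pfk and Ald in 14, whereas Gapdh2 was not called in 8, which included a pseudocount of 0.1, no filter, each setting without a myoblast library and that without input replicate 3. A filter on a mean RPKM over 5 left 920 genes called, against 1534, and leaving out 1 library in turn gave 903 to 2342 calls. Of 7533 tested genes, 759 to 1471 were then lower and 139 to 871 higher. Among the enzyme genes 3 to 4 were lower and 0 to 1 higher (Gapdh1, without input replicate 1). Rescaling to the same sum of RPKM left 2 enzyme genes lower, where 12.3% of all tested genes were. The direction turned only for genes that were not called with all libraries. For Eno it was 0.0077 after quantile normalization, and without 1 library the values ran from -0.60 to 0.10 for Tpi, from -0.12 to 0.60 for Gapdh1, from -0.45 to 0.017 for Pgk and from -0.20 to 0.0011 for Eno. Of all called genes 27.1% were higher in myoblasts, against 16.3% with the same sum, 50.4% after quantile normalization, which also moved the median of all genes to 0.16 and left that of the enzyme genes at -0.28, and 37.2% without input replicate 1. Removal of the trend on exon length, chosen after seeing the data, gave 2022 calls among 7533 tested genes, 1346 lower and 676 higher. Of the enzyme genes 4 were lower and 0 higher there. The cause of these shifts was not tested.

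The labels do not say that same-numbered libraries belong together, and the paper's methods name 3 replicates without stating a pairing. For that reason the libraries were not treated as pairs. Deviations of same-numbered libraries from the group means correlated at 0.34, 0.26 and 0.0069. Replicates 1 and 2 correlated best with their own number, but myoblast replicate 3 with input replicate 2. These values do not settle whether same-numbered libraries share a source. With the replicate number as a block 1668 of 7533 genes were called, 1177 lower and 491 higher, with 4 enzyme genes lower and 0 higher. The within-library ratios differed by -18.3 percentage points for Gapdh2, -1.74 for log2 of Ldh to PyK and -0.0579 percentage points for the sum. Pairing leaves these means unchanged by arithmetic. An exact test on the paired differences gave p = 0.25 for each, the lowest that 3 pairs can give, against 0.1 without pairs. In simulated data 100 of 7533 genes were changed by 1 on the log2 scale and 100 by 2, and 21% and 67% of them were recovered. The real data gave 1534 calls with all libraries. The adjusted p depends on the share of changed genes, so these recoveries need not hold for the real data. A missed threshold is therefore not read as the absence of a change.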

Other observations

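The routes that leave glycolysis were measured on the same lists. In the pentose phosphate pathway, which branches off at the substrate of Pgi, 1 of 7 tested genes was called lower and 0 higher. Over all tested genes 14.8% were called lower and 5.52% higher. The called gene was Pgd, with 14.4 ± 2.43 RPKM in myoblasts and 31.7 ± 4.65 RPKM in the input (SD, n = 3 each, adjusted p = 0.00913, limma). Without myoblast replicate 3 it was not called, and its exons share 104 bases with bcn92 on the opposite strand. The most abundant gene of that pathway was Taldo, the transaldolase, with 238 ± 32.1 RPKM in myoblasts and 219 ± 104 RPKM in the input, and it did not pass the test. Without input replicate 1 the list had 2 genes called higher and 1 lower, where 11.6% and 19.5% of all tested genes were. The genes called higher were those of the pentose phosphate isomerase Rpi (log2 fold change 0.63, adjusted p = 0.0177, limma; 0.45 with all libraries) and epimerase Rpe, listed as CG30499 (0.88, adjusted p = 0.00361, limma; 0.49 with all libraries). Taldo had a log2 fold change of 0.57 without that library and 0.21 with it, and was called in neither case.

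In the citric acid cycle, which oxidizes pyruvate carbon, 2 of 12 tested genes were called higher and 0 lower, where 5.52% and 14.8% of all tested genes were. The median log2 fold change of the list was 0.44, beside 0.01 over all tested genes, and 0.28 without input replicate 1. The subunit of isocitrate dehydrogenase Idh3a, listed under an older name, had 110.2 ± 3.12 RPKM in myoblasts and 69.1 ± 12.5 RPKM in the input (adjusted p = 0.0383, limma). The succinyl-CoA synthetase subunit skap had 103 ± 12.2 RPKM in myoblasts and 61.4 ± 10.1 RPKM in the input (adjusted p = 0.0318, limma). These calls were made in 6 and 9 of 15 alternative settings. They were lost when any of the myoblast libraries or input replicate 3 was left out, as well as after rescaling to the same sum, and that of Idh3a also without input replicate 1. Scsalpha, the most abundant gene of the list, did not pass the test, with 186 ± 32.3 RPKM in myoblasts and 153 ± 78.0 RPKM in the input (log2 fold change 0.38). Without input replicate 1 it was called higher (0.77, adjusted p = 0.0118, limma), as was the malate dehydrogenase gene Mdh2 (0.72, adjusted p = 0.00784, limma, and 0.60 with all libraries). The list then had 3 genes called higher and 0 lower, where 11.6% and 19.5% of all tested genes were.

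Of the 7 tested genes by which pyruvate enters mitochondria, 0 were called by limma, where 14.8% of all tested genes were lower and 5.52% higher. An unadjusted p under 0.05 was reached by 1 of the 7, a gene of the mitochondrial pyruvate carrier family (CG9399, log2 fold change -1.43, adjusted p = 0.0795, limma). The most abundant was CG7430, dihydrolipoamide dehydrogenase, with 92.2 ± 1.49 RPKM in myoblasts and 83.7 ± 19.4 RPKM in the input. Among genes of lactate transport only Bsg was tested and was not called, with 19.2 ± 1.14 RPKM in myoblasts and 21.2 ± 3.05 RPKM in the input, and the monocarboxylate transporters Sln and Mct1 were at most 2.14 RPKM. Among 7 tested regulators of glycolytic genes 1 was called higher and 0 lower, where 5.52% and 14.8% of all tested genes were. The called regulator was Myc, with 20.9, 26.9 and 25.8 RPKM in myoblasts and 5.74, 12.8 and 8.94 RPKM in the input (log2 fold change 1.38, adjusted p = 0.0122, limma). It was not called without myoblast replicate 2 or 3 or after rescaling to the same sum. The nuclear receptor ERR had 2.45, 1.69 and 2.51 RPKM in myoblasts and 1.24, 4.70 and 6.29 RPKM in the input, with overlapping groups. It was not called with all libraries (log2 fold change -0.50, adjusted p = 0.522, limma) and was called lower without input replicate 1 (-1.01, adjusted p = 0.0152, limma). Without that library 1 regulator was lower and 1 higher, where 19.5% and 11.6% of all tested genes were. The most abundant regulator, tgo, did not pass the test, with 23.5 ± 0.357 RPKM in myoblasts and 26.3 ± 5.52 RPKM in the input.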
